A study of Homo sapiens with 39 samples.

Results

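Collagen chains are the protein-coding genes whose symbol is COL, a number, A and a number. The deposited gene table holds 44 of them among 60671 distinct genes, and all 44 were followed through 39 RNA-seq libraries of A375 and WM115, both established human melanoma lines. By structural role, 11 encode fibril-forming chains, 9 network-forming chains, 10 fibril-associated chains, 8 chains of beaded filaments, anchoring fibrils or other kinds, 4 transmembrane collagens and 2 multiplexins, which carry their triple helix in interrupted stretches beside basement membranes.

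Collagen molecules are triple helices of chains. Some are made of 1 gene product and others need partners, so the level of 1 chain alone does not give the level of a molecule. Type I fibrils normally hold the products of COL1A1 and COL1A2, type IV networks of basement membranes mostly those of COL4A1 and COL4A2, and type VI filaments those of COL6A1, COL6A2 and COL6A3. In skin these proteins are laid down mainly by fibroblasts and at the basement membrane, and melanoma cells add to the matrix around them.

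Each line was sampled as unedited cells (WT, 4 libraries a line) and as clones that lack a regulatory region near SOX10, the transcription factor gene of neural crest and pigment cells. The labels call these regions R1 and R4. R1 was deleted in clones 1.1 and 1.2, and R4 in clones 4.1 and 4.2, which are different clones in the 2 lines. In A375, 3 libraries came from clone 1.1, 4 from 1.2, 4 from 4.1 and 3 from 4.2. In WM115, 5 came from clone 1.1 and 3 from each of 1.2, 4.1 and 4.2. A further 3 came from WM115 clone 1.3, whose title and genotype labels name different regions and which was kept apart. Each group other than WT is thus 1 clone, and a difference from WT is that of a clone, not of a deletion. The labels do not say whether libraries of a group came from separate cultures, so p-values measure the spread between these libraries. Values are TPM, a share of the library corrected for transcript length, which allows levels to be set side by side between genes. Less RNA per cell and fewer cells with that RNA cannot be told apart in such bulk values.

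Read depth is unknown. SOX10 ranged from 630 to 706 TPM in A375 WT and from 449 to 553 in WM115 WT, so both lines carried this defining gene. MLANA, TYR and DCT, genes of pigment production, were under 1 TPM in every A375 library. Of the markers of other cell types, the 4 leukocyte genes summed to at most 1.19 TPM in any library. The 7 fibroblast markers summed to between 29.1 and 164 TPM in A375 and between 31.5 and 129 TPM in WM115, with PRRX1 the main one in A375 WT and FAP and PRRX1 in WM115 WT, while DPT was listed at 0 throughout. Mitochondrially encoded genes took 0.968% to 4.92% of TPM in A375 and 4.71% to 19.4% in WM115, where WT sat at 13.7% to 15.6%. A pair of WM115 libraries stood apart over all genes other than collagens. Replicate 3 of clone 1.2 reached a correlation of only 0.944 with its nearest library and had 9.56 TPM of SOX10, where the other 20 WM115 libraries had at least 272. The library labelled clone 1.3 replicate 2 was closest to clone 1.2 replicates 2 and 1 (0.981 and 0.979), ahead of its own group (0.968 and 0.940). Called differences from WT that rest on either are given with and without it. Counts over several clones, and the comparison of R4 with R1 clones, were not repeated without these single libraries.

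Unedited A375 and WM115 shared most of their abundant collagens and differed in type I. The highest levels in A375 WT belonged to COL4A2 (370 ± 132 TPM, SD, n = 4), COL9A3 (335 ± 75.2) and COL4A1 (135 ± 38.3), followed by COL6A1 (99.7 ± 27.7) and COL6A2 (90.1 ± 51.6). COL4A2 and COL9A3 overlapped in range, as did COL4A1, COL6A1 and COL6A2. These 5 genes held 83.0% to 85.8% of the summed collagen TPM of an A375 WT library. In WM115 WT, COL1A2 led (545 ± 99.8), ahead of COL4A2 (375.5 ± 29.6), COL9A3 (317 ± 72.0), COL4A1 (120 ± 9.56) and COL18A1 (105 ± 9.96), and these 5 held 76.1% to 78.9%. The summed level of all 44 genes was 1224 ± 341 TPM in A375 WT and 1887 ± 242 in WM115 WT.

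**Figure D1:**
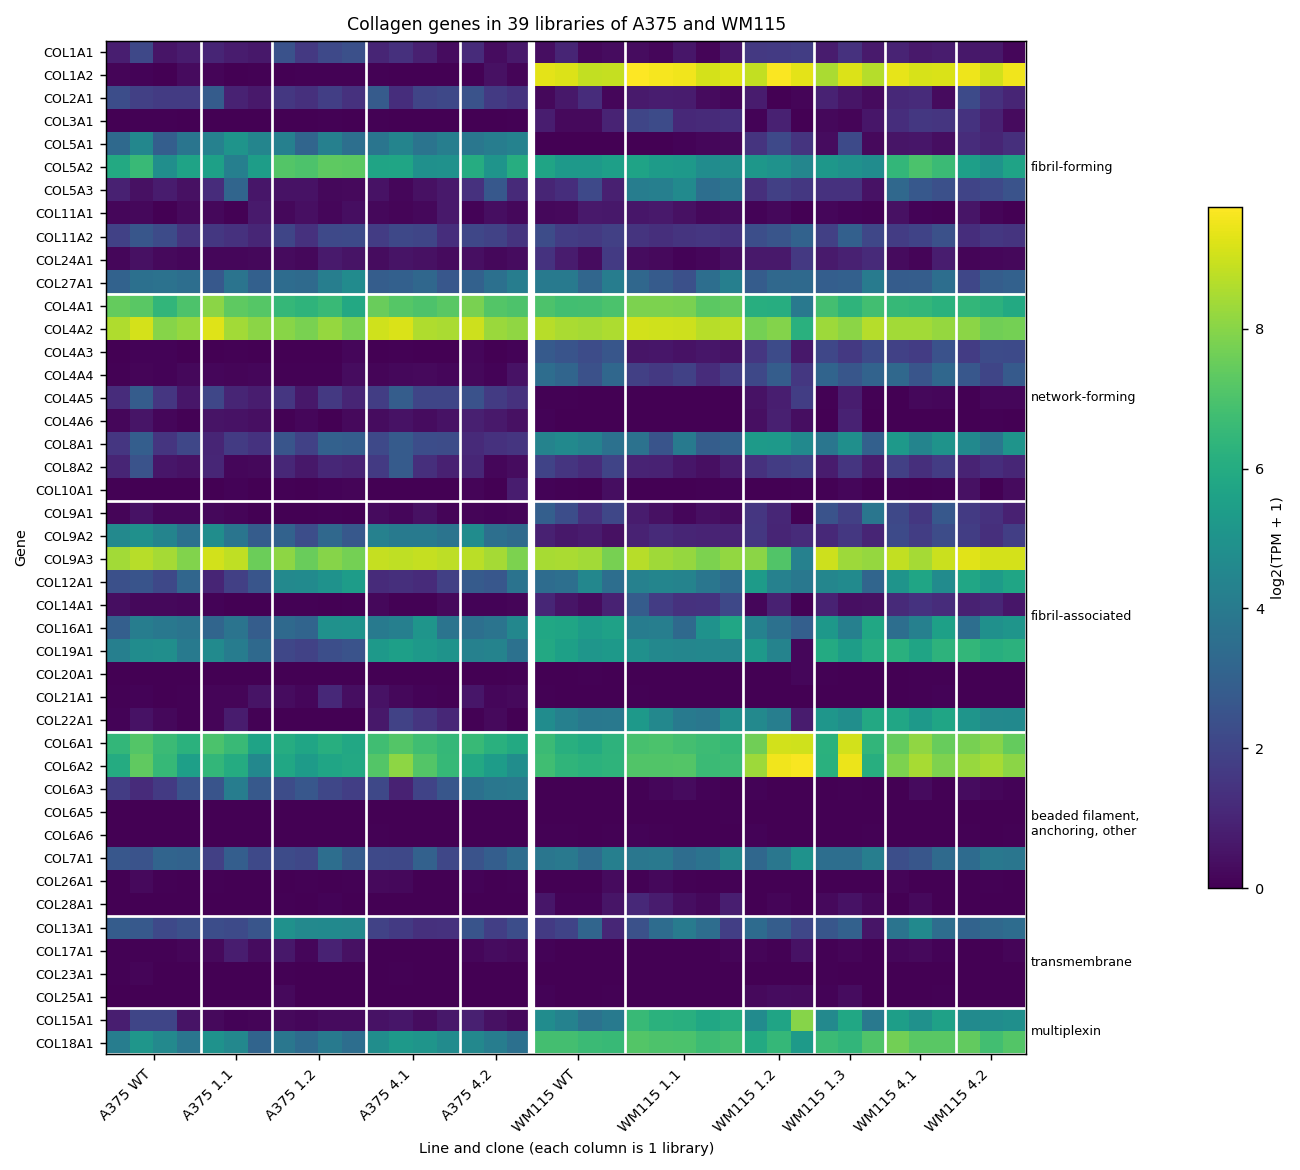
Level of the 44 collagen genes (rows, grouped by structural role) in 39 libraries (columns, grouped by line and clone), as log2(TPM + 1) on the colour scale. COL4A1, COL4A2, COL9A3, COL6A1 and COL6A2 are bright in both lines, and COL1A2 is bright only in the 21 WM115 libraries.

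Between the unedited lines, 17 of the 28 collagen genes tested passed the test, 12 higher and 5 lower in WM115. Over all 16126 genes, 22.7% passed it, 13.1% higher and 9.55% lower. Testing used limma on log2(TPM + 1) with Benjamini-Hochberg adjustment over all genes with at least 1 TPM in at least 3 libraries, and a gene was called at an adjusted p under 0.05 with a log2 difference of at least 1. Differences on this scale understate changes of genes near 1 TPM. Of the 17, COL1A2, COL4A3, COL4A4, COL9A1 and COL22A1 stayed under 1 TPM in every A375 WT library, and COL5A1, COL6A3, COL4A5 and COL9A2 in every WM115 WT library. These genes were tested only through the line in which they were higher, under the filter that also applied to the 22.7%. The median difference of the 28 genes was 0.45, against 0.04 over all genes. Each line is 1 sample of its kind, so these values describe the pair of lines.

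COL1A2 (ENSG00000164692, chromosome 7, 94394561 to 94431232, plus strand, GRCh38), the alpha 2 chain of type I collagen, was at 0.086, 0.059, 0 and 0.22 TPM in the A375 WT libraries and at 657, 599.6, 454 and 467 TPM in those of WM115. No library of one line came near the other, and the log2 difference was 8.95 (SE 0.16, adjusted p = 1.35e-09). Its partner chain COL1A1 did not follow it, with 0.271, 1.003, 0.146 and 0.253 TPM in the same WM115 libraries. Over all 21 WM115 libraries COL1A2 ran from 365 to 857 TPM and COL1A1 from 0.087 to 2.43, and the ratio of COL1A2 to COL1A1 lay between 220.2 and 6309. In A375 the ratio did not exceed 1.32 in any of 18 libraries. COL1A2 was not called in any WM115 clone against WT, and all 5 clones overlapped WT.

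Most other chains that were higher in WM115 WT than in A375 WT were fibril-associated or network-forming. Among fibril-associated chains, which decorate fibrils, COL22A1 differed by 4.0 (adjusted p = 4.51e-07, limma), COL9A1 by 1.94, COL16A1 by 1.93, COL12A1 by 1.19 and COL19A1 by 1.01. COL22A1 had 25.4, 18.2, 13.96 and 14.3 TPM in WM115 WT against 0.065, 0.375, 0.152 and 0.049 in A375 WT. Both multiplexins were higher, COL15A1 by 2.84 and COL18A1, the precursor of endostatin, by 2.31. COL4A4, COL4A3 and COL8A1 were higher by 2.97, 2.49 and 2.23. COL7A1, the anchoring fibril chain, was higher by 1.02, with most of its TPM in both lines on transcripts annotated as not protein-coding. The smallest of these differences fell under the size required when 1 library was left out. For COL19A1 this was A375 WT replicate 1 or 4 or WM115 WT replicate 1 or 2 (0.87 to 0.98), for COL7A1 A375 WT replicate 1 or 2 or WM115 WT replicate 2 or 4 (0.90 to 0.99), and for COL12A1 WM115 WT replicate 3 (0.93).

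The 5 genes lower in WM115 WT were COL9A2 (-3.69), COL5A1 (-3.63), COL6A3 (-1.74), COL4A5 (-1.52) and COL2A1 (-1.30). COL5A1, the chain that starts and limits fibril growth, was at 9.05, 21.8, 6.45 and 13.0 TPM in A375 WT and at 0.010, 0.005, 0 and 0 in WM115 WT. Its partner COL5A2 was present in both, at 27.4 to 96.6 TPM in A375 WT and 36.5 to 50.5 TPM in WM115 WT. The same holds for type VI: COL6A3 had 2.30, 1.28, 2.12 and 4.43 TPM in A375 WT and at most 0.011 in WM115 WT, while COL6A1 (-0.35, adjusted p = 0.201) and COL6A2 (0.09, adjusted p = 0.838) were not called between the lines. In all 21 WM115 libraries COL6A3 stayed at or under 0.254 TPM.

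**Figure D2:**
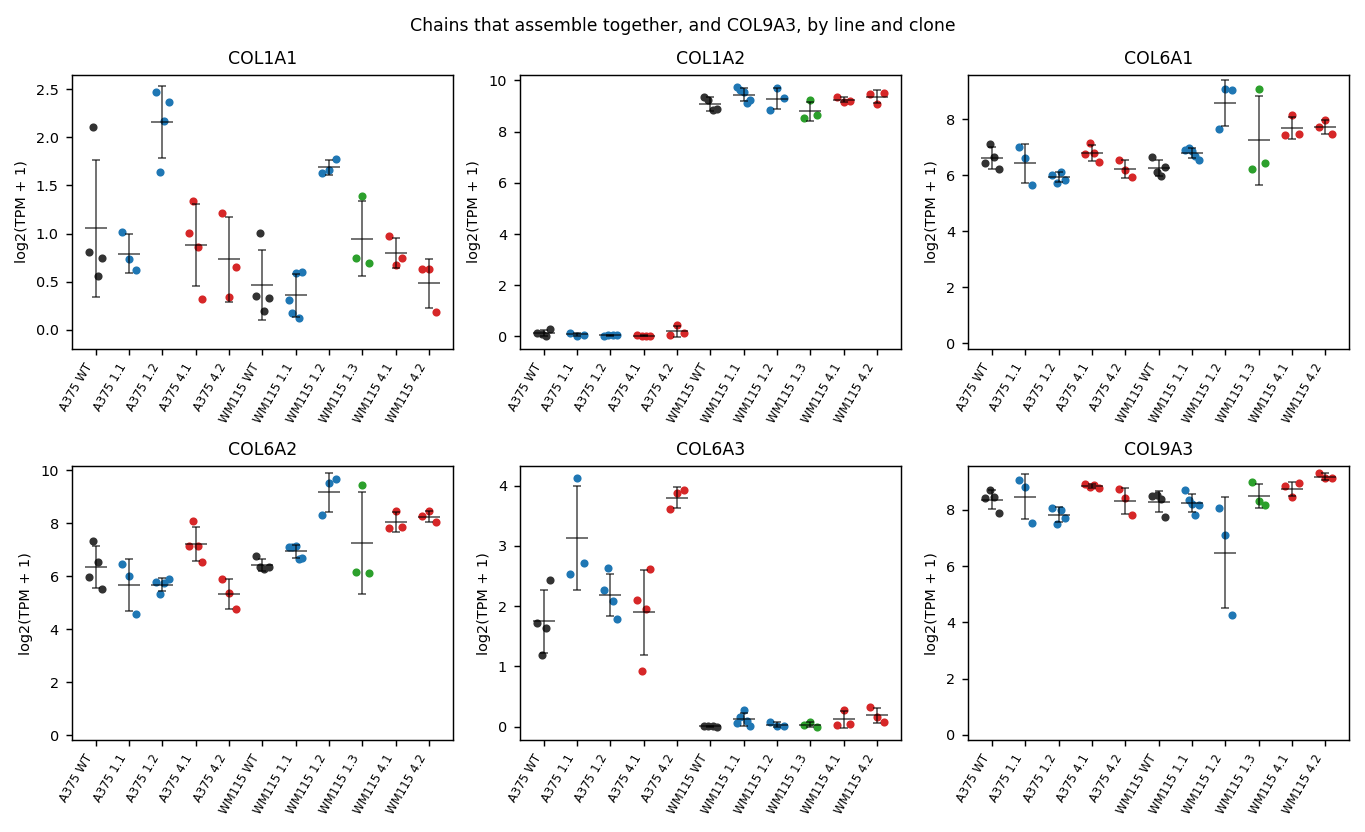
Level of chains that assemble together, and of COL9A3, in each library (points) by line and clone, as log2(TPM + 1), with group mean and SD (bars). Black points are WT, blue R1 clones, red R4 clones and green clone 1.3. COL1A2 sits near 0 in A375 and above 8 in WM115, COL6A3 does the reverse at lower levels, and COL6A1 and COL6A2 are high in WM115 clones 1.2, 4.1 and 4.2 and in 1 library of clone 1.3.

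Clones were next compared with WT of their own line. In A375, 24 collagen genes were tested in each clone, and 8 were called in at least 1 clone. Clone 1.2 had 6 calls, 4 higher and 2 lower, where 4.01% of all genes were called (2.57% higher and 1.44% lower). Clone 4.1 had 1 call, higher, where 0.653% of all genes were called (0.246% higher and 0.407% lower). Clone 4.2 had 1 call, higher, where 0.473% of all genes were called (0.108% higher and 0.365% lower). Clone 1.1 had 0 calls by limma, where 0.731% of all genes were called (0.186% higher and 0.545% lower), with 5 of 24 genes at an unadjusted p under 0.05, as were 10.1% of all genes. Median differences of the 24 genes were -0.30, -0.20, 0.19 and -0.04 in clones 1.1, 1.2, 4.1 and 4.2, against 0.01, 0.07, -0.02 and 0.06 over all genes.

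In WM115, of 30 tested, 6 were called in clone 1.1, 3 higher and 3 lower, where 4.88% of all genes were called (1.22% higher and 3.66% lower). Clone 1.2 had 12 calls, 5 higher and 7 lower, against 7.61% of all genes (4.49% higher and 3.11% lower). R4 clone 4.1 had 8 calls, 7 of them higher, against 7.57% of all genes (3.2% higher and 4.37% lower). R4 clone 4.2 had 5 calls, 4 of them higher, against 6.6% of all genes (2.52% higher and 4.08% lower). Clone 1.3 had 0 calls by limma, against 0.618% of all genes (0.424% higher and 0.194% lower), with 6 of 30 genes at an unadjusted p under 0.05, as were 13% of all genes. Medians of the 30 genes were 0.48 and 0.28 in clones 4.1 and 4.2, against -0.10 over all genes in each. In clones 1.1, 1.2 and 1.3 they were 0.07, -0.14 and -0.06, against -0.12, -0.02 and -0.03. Without clone 1.2 replicate 3, the 12 calls of clone 1.2 became 4, all higher: COL1A1, COL5A1, COL6A1 and COL6A2.

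**Figure D3:**
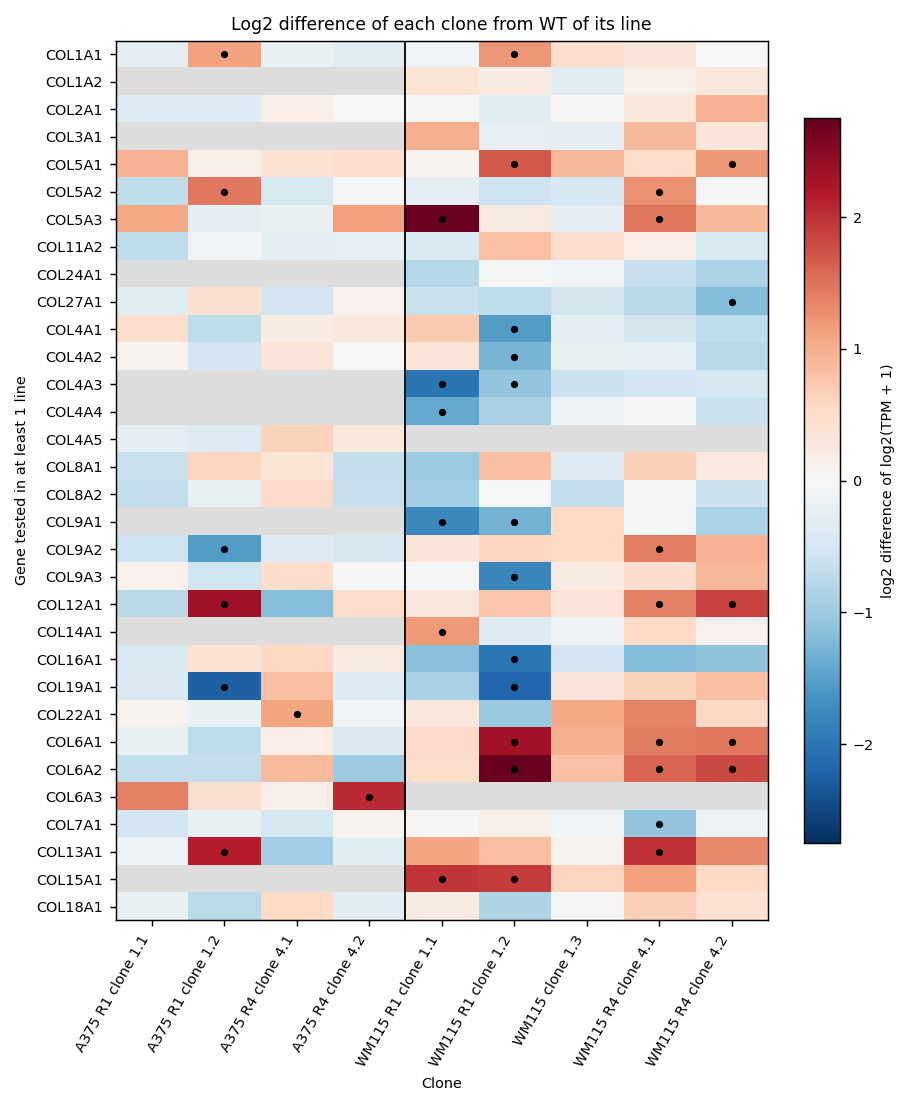
Difference of log2(TPM + 1) from WT (colour) of each collagen gene tested in at least 1 line (rows) in the 9 clones (columns). A dot marks a called difference, and grey a gene not tested in that line. A375 clone 1.2 and WM115 clones 1.1, 1.2, 4.1 and 4.2 hold all but 2 of the dots.

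In all, 23 of 44 collagen genes were called in some clone, and 12 of the 44 were tested in neither line. In A375 these were 8 of 24 tested, where 4.97% of all genes were called in at least 1 clone. In WM115 they were 21 of 30 tested, where 17.9% of all genes were. Of these 21, COL4A1, COL4A2, COL9A3, COL16A1 and COL19A1 were called in WM115 only in clone 1.2, and each of those calls was lost without its replicate 3. The totals were not recounted without that library. COL22A1 in A375 and COL1A1, COL5A1 and COL9A2 in WM115 were tested only because of clones in which they were high. For COL9A2 these were 14 libraries of clones above WT, 11 of them outside clone 4.1, and 0 libraries of WT. In these fits, which do not pair libraries, no collagen gene was called in opposite directions within a line. With the replicate number as a block in A375 clone 4.1, given below, COL12A1 was called lower there, while it was called higher in A375 clone 1.2. The clones of a line share their WT libraries, so calls that recur among them are not independent. In WM115, COL15A1 was higher and COL4A3 and COL9A1 were lower in both R1 clones, and COL12A1, COL6A1 and COL6A2 were higher in both R4 clones. Without clone 1.2 replicate 3, the clone 1.2 calls of COL15A1, COL4A3 and COL9A1 were all lost. In A375 no collagen gene was called in both clones of a region.

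Type VI collagen showed the highest levels reached by any chain other than COL1A2 in the WM115 clones. COL6A1 (ENSG00000142156, chromosome 21, 45981737 to 46005050, plus strand) and COL6A2 (ENSG00000142173, chromosome 21, 46098097 to 46132849, plus strand) are neighbours and encode chains of the same filament. COL6A2 was at 108, 81.3, 76.5 and 80.3 TPM in WM115 WT, at 319, 733 and 808 in clone 1.2, at 226, 354 and 229 in clone 4.1 and at 305, 349.8 and 262 in clone 4.2. Every library of these 3 clones was above every WT library. The log2 differences were 2.73 (SE 0.54, adjusted p = 0.00262), 1.61 (SE 0.54, adjusted p = 0.0369) and 1.81 (SE 0.54, adjusted p = 0.0239), by limma.

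COL6A1 moved with it. WT libraries had 99.6, 69.0, 61.5 and 77.8 TPM, clone 1.2 had 197, 534 and 525, clone 4.1 had 171, 281 and 178, and clone 4.2 had 211, 249 and 175. Again no library of these clones overlapped WT, with differences of 2.31 (adjusted p = 0.00364), 1.42 (adjusted p = 0.0381) and 1.45 (adjusted p = 0.0387). In clone 1.1, COL6A2 had 136, 137, 139.9, 99.0 and 102 TPM and overlapped WT (0.50, adjusted p = 0.484).

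Clone 1.3 was split. Its replicates 1 and 3 had 71.1 and 67.8 TPM of COL6A2 and 73.6 and 84.5 TPM of COL6A1, inside the WT range or below it. Its replicate 2 had 703 and 535 TPM, levels found elsewhere only in clone 1.2 replicates 2 and 3. COL5A1 divided the same way, with 0.245 and 0.173 TPM in replicates 1 and 3 and 3.57 TPM in replicate 2.

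Leaving out this library and clone 1.2 replicate 3 together kept both genes called in clones 1.2, 4.1 and 4.2. COL6A1 then had adjusted p-values of 2.64e-04, 9.00e-04 and 0.00103, and COL6A2 had 1.08e-05, 1.33e-04 and 7.27e-05. With those libraries in the fit, the calls in the R4 clones were close to the threshold. Leaving out 1 library of the clone or WT ended the COL6A1 call in clone 4.1 in 6 of 7 fits (all but that without WT replicate 1, adjusted p = 0.0621 to 0.150) and in clone 4.2 in all 7 (adjusted p = 0.0507 to 0.130). It ended the COL6A2 call in clone 4.1 in all 7 (adjusted p = 0.0505 to 0.137) and in clone 4.2 in 4 of 7, those without its replicates 1 and 2 and WT replicates 2 and 4 (adjusted p = 0.0514 to 0.0876). With the mitochondrial share of a library, high or low, as a term, COL6A1 had adjusted p = 0.128 in clone 4.1 and 0.0634 in clone 4.2, and COL6A2 had 0.131 and 0.0426, at log2 differences of 1.27, 1.38, 1.41 and 1.71. Within WM115 libraries of high share, COL6A1 and COL6A2 differed by 1.45 and 1.81 in clone 4.2 (adjusted p = 0.174 and 0.139), and clone 4.1 had too few such libraries for a value.

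**Figure D4:**
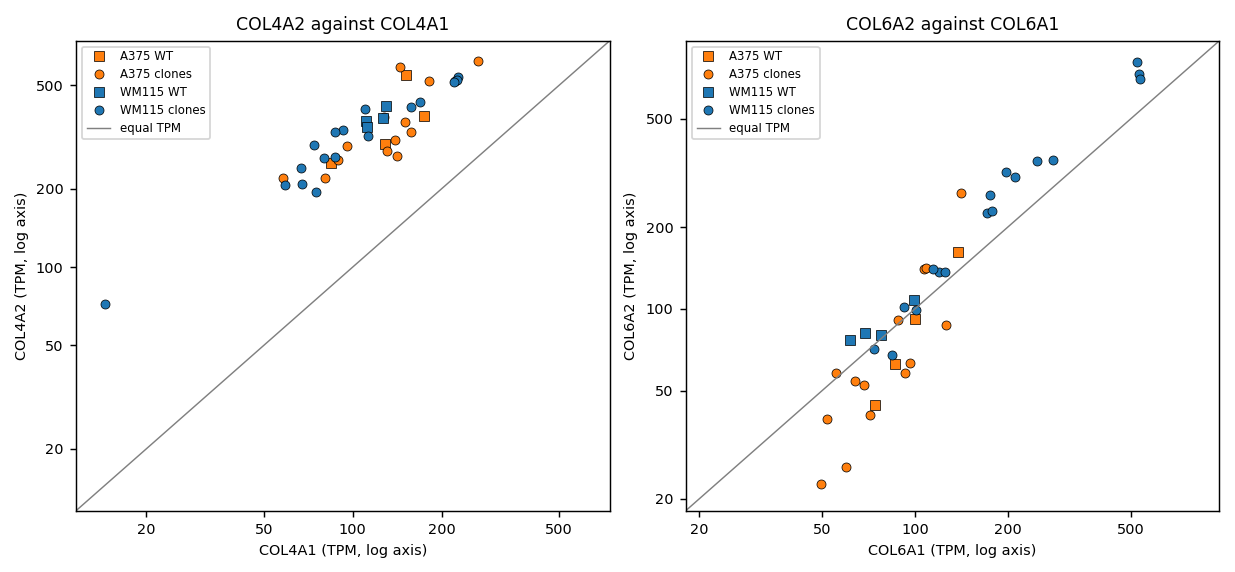
COL4A2 against COL4A1 (left) and COL6A2 against COL6A1 (right) in each of 39 libraries, in TPM on log axes, with a grey line at equal TPM. Squares are WT and circles clones, orange A375 and blue WM115. COL4A2 lies above COL4A1 in every library, while COL6A2 falls on both sides of COL6A1, with 3 WM115 libraries at 525 to 808 TPM of each.

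In A375 the type VI chains moved otherwise. COL6A3 (ENSG00000163359, chromosome 2, 237324003 to 237414375, minus strand) had 11.2, 13.7 and 14.2 TPM in clone 4.2, where WT had 2.30, 1.28, 2.12 and 4.43. All 3 libraries lay above WT, and it was the single collagen called in that clone (2.06, SE 0.40, adjusted p = 0.0193). The call passed the threshold narrowly: it was lost in 6 of 7 fits that left out 1 library of clone 4.2 or WT (all but that without WT replicate 4), with adjusted p-values of 0.0526 to 0.126, and with the low-share libraries alone (1.98, adjusted p = 0.442). Clone 1.1 was above WT too, at 4.81, 16.4 and 5.61 TPM, without passing (1.38, adjusted p = 0.132). COL6A1 and COL6A2 differed by -0.39 and -1.0 in clone 4.2 (adjusted p = 0.66 and 0.638). The ratio of COL6A2 to COL6A1 ranged from 0.435 to 1.90 in A375 and from 0.802 to 1.62 in WM115.

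COL4A1 (ENSG00000187498, chromosome 13, 110148963 to 110307233, minus strand) and COL4A2 (ENSG00000134871, chromosome 13, 110305812 to 110513209, plus strand) encode the common chains of basement membrane networks and lie head to head. Their RefSeq start sites are 126 bases apart. COL4A2 exceeded COL4A1 in all 39 libraries, by a ratio of 1.89 to 4.96 with a median of 2.96. COL4A1 had 129, 111, 112 and 126 TPM in WM115 WT and 67.6, 67.1 and 14.5 in clone 1.2. COL4A2 had 416, 365, 345 and 376 TPM in WT and 208, 241 and 71.8 in clone 1.2. Clone 1.2 lay below WT in every library for both genes, with replicate 3 far below the rest. The differences were -1.53 (adjusted p = 0.00613) and -1.28 (adjusted p = 0.00463). Genes of chromosome 13 had a median of -0.31 in this clone. Without replicate 3 the differences were -0.82 (adjusted p = 0.0138) and -0.74 (adjusted p = 0.0147), smaller than the size required for a call. In clone 1.1, COL4A1 stood above WT at 227, 226, 221, 157 and 169 TPM, with a difference under 1. In the R4 clones both genes were below WT in every library, at 59.2 to 92.5 TPM of COL4A1, and neither was called. In clone 4.2 COL4A1 differed by -0.70 and COL4A2 by -0.76, where genes of chromosome 13 had a median of -0.58.

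COL4A3 and COL4A4, among the chains of a second type IV network, are also neighbours read in opposite directions. Their RefSeq starts are 418 bases apart on chromosome 2. Both genes were near 0 in A375. COL4A5, another type IV chain, averaged 0.019 TPM in WM115 WT and 0 in WM115 clone 1.1. COL4A3 had 5.69, 4.77, 3.87 and 5.13 TPM in WM115 WT and 0.465, 0.492, 0.380, 0.511 and 0.385 TPM in clone 1.1. COL4A4 had 10.3, 7.97, 4.29 and 8.66 TPM in WT and 2.60, 2.10, 2.71, 1.36 and 2.34 TPM in clone 1.1. The 5 libraries of clone 1.1 lay below all WT libraries for both genes, with differences of -2.01 (SE 0.24, adjusted p = 1.29e-05) and -1.41 (SE 0.26, adjusted p = 0.00108). COL4A3 was lower in clone 1.2 too, at 1.88, 3.65 and 0.56 TPM (-1.08, adjusted p = 0.00979), but without replicate 3 that difference was -0.67 (adjusted p = 0.0963). COL4A4 differed by -0.90 there (adjusted p = 0.0377), under the size required. In the R4 clones, COL4A3 had 2.69, 2.29 and 4.45 TPM in 4.1 and 2.36, 3.66 and 3.60 TPM in 4.2, and COL4A3 and COL4A4 were not called.

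Start-proximal DNA is shown for 4 collagen genes whose level changed together with a partner or in more than 1 clone, COL4A4, COL6A2, COL5A3 and COL12A1. Each stretch is 150 bases on the gene's own strand from RefSeq (GRCh38.p14), the bases nearest the start site that no GENCODE 29 exon covers. Capitals mark matches, on either strand, to CCAAT, to the GC box GGGCGG or to ACAAAG, a core bound by SOX proteins. They lie at chr2:227164237-227164386 (minus), chr21:46097947-46098096 (plus), chr19:10010505-10010654 (minus) and chr6:75206054-75206203 (minus).
COL4A4: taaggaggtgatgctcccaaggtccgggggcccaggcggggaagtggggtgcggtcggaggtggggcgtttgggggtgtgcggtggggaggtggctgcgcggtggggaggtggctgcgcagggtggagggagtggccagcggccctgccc
COL6A2: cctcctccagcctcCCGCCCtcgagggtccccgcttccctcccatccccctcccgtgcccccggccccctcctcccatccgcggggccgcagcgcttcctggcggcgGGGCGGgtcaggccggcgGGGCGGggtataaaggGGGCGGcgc
COL5A3: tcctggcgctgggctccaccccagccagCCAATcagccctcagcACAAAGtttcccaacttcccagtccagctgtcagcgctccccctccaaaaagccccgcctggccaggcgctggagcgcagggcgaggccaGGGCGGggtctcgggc
COL12A1: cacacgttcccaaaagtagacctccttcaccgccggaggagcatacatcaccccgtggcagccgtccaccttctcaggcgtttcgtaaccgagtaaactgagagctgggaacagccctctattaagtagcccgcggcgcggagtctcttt

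The RefSeq promoter table used here held 32 of the 44 collagen genes and not COL1A1, COL1A2, COL2A1, COL3A1, COL5A2, COL6A1, COL6A5, COL8A1, COL9A3, COL14A1, COL20A1 or COL22A1. In the 250 bases before the start, GGGCGG or its complement CCGCCC occurred in 21 of 32 (65.6%, against 46.2% of 27305 genes). CCAAT or ATTGG occurred in 11 of 32 (34.4%, against 37.0%) and ACAAAG or CTTTGT in 5 of 32 (15.6%, against 16.3%). CACGTG, the E-box read by MITF, occurred in 0 of 32 (against 7.73%). A match describes letters only. None of the motifs contains another.

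Among fibril-forming chains, COL5A3 (ENSG00000080573, chromosome 19, 9959561 to 10010471, minus strand), a minor chain of type V, was higher in WM115 clones 1.1 and 4.1. It had 1.03, 1.42, 3.41 and 0.825 TPM in WM115 WT, 16.3, 17.5, 24.1, 10.4 and 12.8 TPM in clone 1.1 and 8.87, 5.35 and 4.23 TPM in clone 4.1. Neither clone overlapped WT, and the differences were 2.73 (SE 0.28, adjusted p = 3.24e-06) and 1.46 (SE 0.32, adjusted p = 0.00338). Clone 4.2, at 2.96, 3.49 and 4.69 TPM, overlapped WT and did not pass (0.89, adjusted p = 0.055). In clone 1.2 COL5A3 had 1.48 to 2.57 TPM (0.24, adjusted p = 0.617).

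The type V partners were called in partly different clones. COL5A1, all but absent from WM115 WT, was at 1.78, 3.47 and 1.77 TPM in clone 1.2 and at 1.36, 1.01 and 1.49 TPM in clone 4.2 (1.70, adjusted p = 0.00186, and 1.18, adjusted p = 0.0144). It reached 1 TPM in 7 WM115 libraries, these 6 and clone 1.3 replicate 2, so it entered the test only through libraries where it was high. Without a filter on low values the adjusted p-values were 0.00393 and 0.0316. Clone 4.1 lay above WT in all 3 libraries without passing (0.50, adjusted p = 0.266), and clone 1.1 had at most 0.15 TPM. Within high-share libraries the clone 4.2 value was 1.16 (adjusted p = 0.121). Among WM115 clones COL5A2 was called in clone 4.1 alone, where COL5A3 was higher too, at 85.8, 125 and 98.9 TPM against 50.5, 38.0, 36.5 and 43.9 in WT (1.26, adjusted p = 0.000735). In A375 it was called in clone 1.2, at 141, 128, 159 and 154 TPM against 59.1, 96.6, 27.4 and 48.9 in WT, with no overlap (1.44, adjusted p = 0.0175). That call was lost without clone 1.2 replicate 3 or 4 or WT replicate 3 (adjusted p = 0.0527, 0.0528 and 0.0707) and within low-share libraries (1.03, adjusted p = 0.22). Whether these clones differ from each other was not tested.

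COL1A1 was called in A375 clone 1.2 and WM115 clone 1.2. A375 clone 1.2 had 4.55, 2.10, 3.49 and 4.14 TPM, WT had 0.748, 3.32, 0.473 and 0.678, and 1 of 4 clone libraries fell within the WT range (1.1, adjusted p = 0.0379). The call was kept without clone 1.2 replicate 2 or WT replicate 2 and lost in the other 6 fits that left out 1 library (adjusted p = 0.0887 to 0.136). It was lost too without a filter (adjusted p = 0.0805), with a pseudocount of 0.1 (0.0791) and with median-of-ratios scaling (0.0585). Within low-share libraries the difference was 0.83 (adjusted p = 0.736). WM115 clone 1.2 had 2.09, 2.16 and 2.43 TPM, above all 4 WT libraries (1.22, adjusted p = 0.00117). It reached 1 TPM in 5 WM115 libraries, 3 of them of clone 1.2, and so was tested only through that clone (adjusted p = 0.0019 without a filter). These levels were small beside the 460.4, 827 and 644 TPM of COL1A2 in the same WM115 libraries. COL27A1, a fibril-forming chain of cartilage, was lower in WM115 clone 4.2, at 3.17, 6.25 and 7.07 TPM against 15.2, 15.0, 8.18 and 16.6 in WT. All 3 libraries were below WT (-1.19, adjusted p = 0.0299), and the call was lost in 5 of the 7 fits that left out 1 library, those without its replicates 1 and 2 and WT replicates 1, 2 and 4, at adjusted p-values of 0.0618 to 0.148. It was lost too with the mitochondrial share as a term (-0.89, under the size required) and within high-share libraries (-0.90, adjusted p = 0.121).

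**Figure D5:**
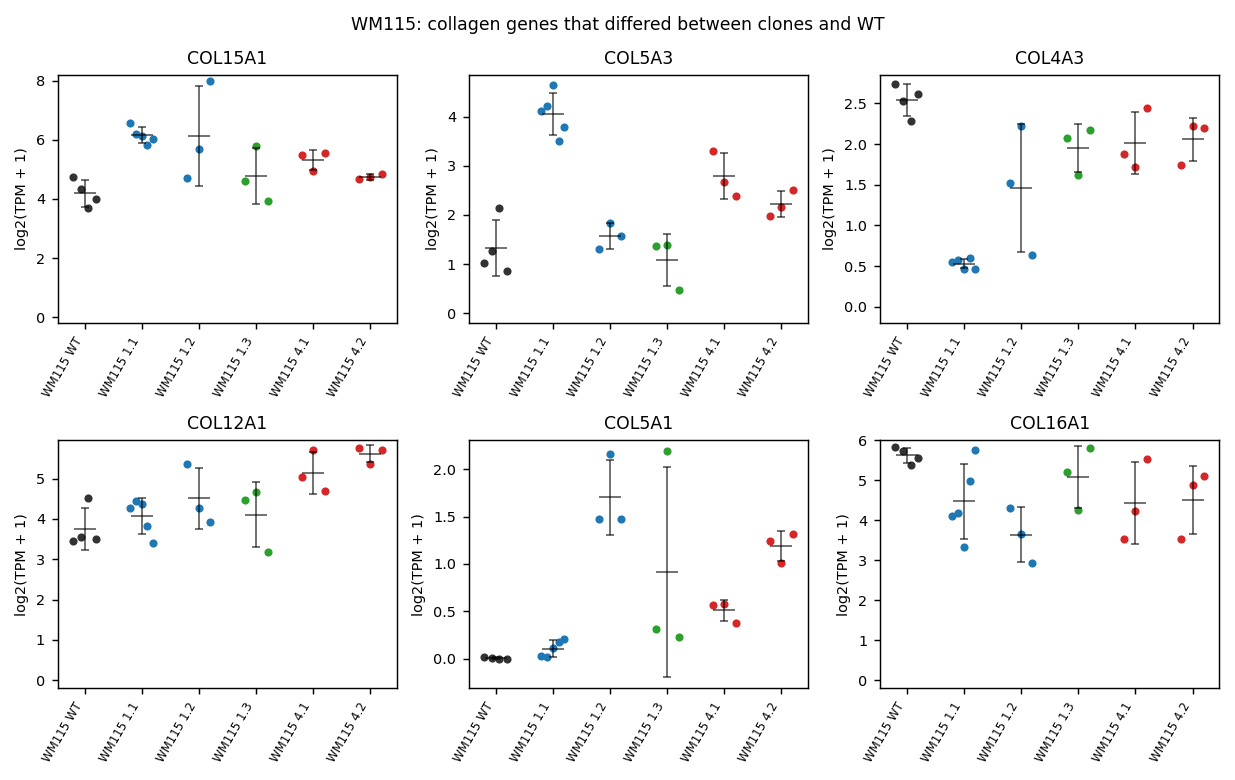
Level of 6 collagen genes in each WM115 library (points) by clone, as log2(TPM + 1), with group mean and SD (bars). Black points are WT, blue R1 clones, red R4 clones and green clone 1.3. COL15A1 and COL5A3 are above WT and COL4A3 below it in all 5 libraries of clone 1.1, and COL12A1 is above WT in all 6 libraries of the R4 clones.

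COL12A1 (ENSG00000111799, chromosome 6, 75084326 to 75206051, minus strand), a fibril-associated chain that bridges fibrils, rose in clones of both lines. In A375 clone 1.2 it had 23.3, 24.1, 30.1 and 40.7 TPM, and WT had 4.25, 4.81, 3.33 and 8.21. In WM115 it had 31.8, 51.5 and 24.8 TPM in clone 4.1 and 53.0, 40.2 and 51.5 TPM in clone 4.2, and WT had 9.85, 10.7, 21.9 and 10.3. None of the 3 clones overlapped WT, at differences of 2.34 (SE 0.32, adjusted p = 0.000163), 1.40 (SE 0.39, adjusted p = 0.0147) and 1.86 (SE 0.39, adjusted p = 0.00314). The A375 call was lost within low-share libraries (1.92, adjusted p = 0.114). The clone 4.1 call of WM115 was lost with the mitochondrial share as a term (1.0, adjusted p = 0.103) and without its replicate 2 (1.11, adjusted p = 0.0883). Genes of chromosome 6 had a median of -0.31 in that clone.

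A375 clone 4.1 went the other way. Its libraries had 1.28, 1.5, 1.27 and 2.59 TPM of COL12A1, all below WT (-1.18, adjusted p = 0.0942). In this clone the replicate numbers pair the libraries with those of WT, at correlations of 0.326 to 0.776 over 4 pairs. With the number as a block COL12A1 passed (-1.18, SE 0.13, adjusted p = 0.00176), which made 2 calls in place of 1. COL13A1 was also below WT there in every library (-0.94, adjusted p = 0.0218), under the size required.

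COL22A1, a fibril-associated chain of tissue junctions, was the call of A375 clone 4.1 in both fits. It had 0.564, 2.76, 1.84 and 1.12 TPM, all above the WT libraries at 0.065, 0.375, 0.152 and 0.049 (1.08, SE 0.23, adjusted p = 0.0225, and 0.0118 with the block). It reached 1 TPM in 3 of 18 A375 libraries, all of clone 4.1, so it was tested only because of that clone's own level. Without a filter the adjusted p was 0.0314. It was left untested when clone 4.1 replicate 2, 3 or 4 was left out, and without WT replicate 1, 3 or 4 it had adjusted p-values of 0.0535 to 0.0809. In WM115, where its WT level was far higher, it was not called in a clone.

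Type IX chains sit on cartilage fibrils, and COL9A3 was abundant in both lines. COL9A2 was lower in A375 clone 1.2, at 7.40, 3.87, 8.84 and 5.46 TPM against 23.3, 28.6, 19.9 and 11.2 in WT (-1.54, adjusted p = 0.0178). It was higher in WM115 clone 4.1, at 3.59, 2.41 and 3.80 TPM against 0.874, 0.564, 0.653 and 0.355 (1.40, SE 0.19, adjusted p = 5.45e-05). Neither clone overlapped its WT. All 17 libraries of the 5 WM115 clones lay above WT for COL9A2, with clone 4.2 just under the size required (0.95, adjusted p = 0.0021). The A375 call was lost without clone 1.2 replicate 2 or 4 or WT replicate 1 (adjusted p = 0.0515 to 0.0552) and within low-share libraries (-1.69, adjusted p = 0.366), and the WM115 call passed in every alternative fit that tested it. In WM115, COL9A2 reached 1 TPM in 14 libraries, all of clones, so it was tested only through groups that lay above WT.

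COL9A1 had 6.68, 3.88, 1.62 and 3.19 TPM in WM115 WT and 0.693, 0.357, 0.117, 0.327 and 0.206 TPM in clone 1.1, all below WT (-1.76, SE 0.38, adjusted p = 0.003, and -1.83, adjusted p = 0.0756, within high-share libraries). In clone 1.2 it had 1.92, 1.08 and 0 TPM, partly inside the WT range (-1.31, adjusted p = 0.0357), and without replicate 3 it did not pass (-0.87, adjusted p = 0.258), nor did it without WT replicate 1, 2 or 4 (adjusted p = 0.0566 to 0.105). COL9A3 (ENSG00000092758, chromosome 20, 62816244 to 62841159, plus strand) had 355, 367, 336 and 211 TPM in WM115 WT and 267, 136 and 18.2 in clone 1.2. Its call there (-1.80, adjusted p = 0.0236) rested on the lowest library, and without it the difference was -0.70 (adjusted p = 0.156). It was lost too without WT replicate 1 or 2 (adjusted p = 0.0525 and 0.0563). COL9A3 was above all WT libraries in A375 clone 4.1 (434 to 479 TPM) and WM115 clone 4.2 (554 to 635 TPM), with no call in either.

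COL19A1 (ENSG00000082293, chromosome 6, 69866571 to 70209976, plus strand), a fibril-associated chain found beside basement membranes, was lower in clone 1.2 of both lines. A375 clone 1.2 had 3.17, 2.79, 4.13 and 4.61 TPM, below the 17.4, 25.8, 26.9 and 15.3 TPM of WT in every library (-2.24, SE 0.26, adjusted p = 2.7e-05). WM115 clone 1.2 had 36.9, 19.7 and 0.141 TPM, of which 1 library lay inside the WT range of 34.1 to 57.4 TPM. Its difference of -2.18 (adjusted p = 0.0321) became -0.65 (adjusted p = 0.131) without replicate 3, and it was lost without WT replicate 1, 2 or 4 (adjusted p = 0.0518 to 0.0736). The A375 difference passed in every alternative fit.

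COL16A1, another chain of this group, had 55.4, 52.1, 40.7 and 46.1 TPM in WM115 WT and 18.8, 11.5 and 6.68 in clone 1.2, all below WT (-1.99, adjusted p = 0.0154). Without replicate 3 the difference was -1.64 (adjusted p = 0.113). COL14A1 was higher in WM115 clone 1.1 (1.17, adjusted p = 0.00409), at 1.64 to 6.05 TPM against 0.25 to 1.09 in WT. Without clone 1.1 replicate 1 the difference was 0.94 (adjusted p = 0.00808), under the size required, and within high-share libraries it was 1.05 (adjusted p = 0.0817). Genes of chromosome 8, where it lies, had a median of 0.41 in that clone.

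COL13A1 (ENSG00000197467, chromosome 10, 69801867 to 69964275, plus strand), a transmembrane collagen of cell adhesion sites, was the only one of its 4-gene class that was tested. It had 29.9, 23.2, 24.0 and 22.2 TPM in A375 clone 1.2 and 6.14, 5.61, 3.38 and 4.26 TPM in WT. The clone was above WT throughout (2.16, SE 0.20, adjusted p = 1.79e-06), and the difference passed in every alternative fit. In WM115 clone 4.1 it had 12.4, 23.4 and 10.2 TPM against 2.12, 2.85, 8.13 and 1.09 in WT (1.99, SE 0.59, adjusted p = 0.0205). There the call was lost without clone 4.1 replicate 1 or 2 or WT replicate 1 or 4 (adjusted p = 0.0501 to 0.102) and with the mitochondrial share as a term (1.71, adjusted p = 0.0923).

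COL15A1 (ENSG00000204291, chromosome 9, 98943179 to 99070792, plus strand), a multiplexin of basement membrane zones, had 25.9, 19.0, 11.8 and 15.1 TPM in WM115 WT. Clone 1.1 had 92.8, 73.0, 69.2, 54.9 and 64.6 TPM, all above WT (1.96, SE 0.46, adjusted p = 0.00568, and 1.73, adjusted p = 0.18, within high-share libraries). Clone 1.2 had 25.0, 50.2 and 253 TPM, of which the lowest lay inside the WT range. Its difference of 1.93 (adjusted p = 0.0149) was 1.0 (adjusted p = 0.130) without replicate 3, the library of 253 TPM. Clone 4.1, at 43.3, 29.7 and 46.4 TPM, was above WT in every library without a call. COL18A1 was not called in any clone of either line.

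COL7A1, the anchoring fibril chain, was lower in WM115 clone 4.1, at 4.06, 5.06 and 9.35 TPM against 13.3, 14.3, 9.81 and 17.4 in WT (-1.08, adjusted p = 0.0245). No clone library reached the WT range. Genes of chromosome 3 had a median of -0.35 in this clone. In WM115 WT, 82.5% of COL7A1 TPM lay on transcripts annotated as not protein-coding, so this difference is mostly not one of annotated coding transcripts unless the shares differ in the clone, which was not tested. The call was lost without clone 4.1 replicate 1 or 2 or WT replicate 2 or 4 (adjusted p = 0.0530 to 0.126) and with the mitochondrial share as a term (-0.74, adjusted p = 0.156).

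Of the 44 genes, 22 were tested in both lines, COL4A5 and COL6A3 in A375 alone, and COL1A2, COL3A1, COL4A3, COL4A4, COL9A1, COL14A1, COL15A1 and COL24A1 in WM115 alone. The 12 genes tested in neither were COL4A6, COL6A5, COL6A6, COL10A1, COL11A1, COL17A1, COL20A1, COL21A1, COL23A1, COL25A1, COL26A1 and COL28A1, none of which exceeded 1.195 TPM in any library. COL3A1, the partner of type I in skin fibrils, reached at most 0.048 TPM in A375 and 3.67 TPM in WM115.

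With the clone as the unit, R4 clones were compared with R1 clones over 8 clones and both lines, leaving out clone 1.3. Of 22 collagen genes tested, 0 were called by limma, as were 0% of all 15287 genes, and 6 of the 22 had an unadjusted p under 0.05, where 4.3% of all genes did. The largest differences among these 6 were those of COL19A1 (1.90, SE 0.47, unadjusted p = 0.00318, adjusted p = 0.996) and COL9A3 (1.02, SE 0.41, unadjusted p = 0.0362, adjusted p = 0.996), both higher in R4 clones. The others were COL22A1, COL18A1, COL9A2 and COL2A1, at 0.93, 0.71, 0.67 and 0.62. COL22A1 reached 1 TPM in 3 A375 libraries, all of R4 clone 4.1, so it was tested here only because of an R4 clone. COL2A1 reached 1 TPM in 6 WM115 libraries, none of them of an R1 clone (at most 0.705 TPM), and it too was tested only because of R4 clones. The median of the 22 genes was 0.19, against -0.03 over all genes. With 8 clones, none of these values passed adjustment. The mean of WM115 clone 1.2 took in its replicate 3, at 0.141 TPM of COL19A1 and 18.2 TPM of COL9A3. A fit without that library alone was not run.

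Other genes of collagen biology are given against the shares of all genes called in the same WM115 clones, which were 4.88%, 7.61%, 7.57% and 6.6% in clones 1.1, 1.2, 4.1 and 4.2. Of 19 genes for folding and modification, all tested in WM115, 4 passed the test in some clone, where 17.9% of all genes did. PLOD2, a lysyl hydroxylase of collagen crosslinks, was lower in clone 1.1 (-1.61, adjusted p = 1.21e-05), SERPINH1, the collagen chaperone, was higher in clone 4.1 (1.01, adjusted p = 0.00181), and P4HA3 and PLOD1 were higher in clone 4.2 (1.26 and 1.44). Of 6 genes for export and transcription, CREB3L1 was called, higher in WM115 clone 1.2 (2.20, adjusted p = 2.57e-04, and 2.0, adjusted p = 0.00377, without replicate 3), and it fell out of the test without both libraries that stand apart. Of 8 genes for procollagen processing, PCOLCE was called, lower in WM115 clone 4.1 (-1.47, adjusted p = 0.00178).

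Of 11 collagen receptor genes, 8 were tested in WM115. In clone 1.2, 2 were higher (4.49% of all genes), in clone 4.1, 3 (3.2%), in clone 4.2, 2 (2.52%) and in clone 1.3, 1 (0.424%), while 1 was lower in clone 1.1 (3.66%). ITGA2, an integrin chain that binds type I collagen, rose by 1.1, 1.18 and 1.22 in clones 1.2, 4.1 and 4.2. ITGA11 rose by 1.34, 1.92 and 1.63 in these clones, at 29.6 to 82.4 TPM against 11.2 to 20.7 in WT, and fell by 1.75 in clone 1.1. Without clone 1.2 replicate 3, ITGA2 passed there (1.12, adjusted p = 0.0262) and ITGA11 did not (0.90, adjusted p = 0.288). ITGA1 was higher in clone 4.1 (1.42) and ITGA10 in clone 1.3 (2.21, and 2.64 without replicate 2). Over these 4 lists the single gene called in an A375 clone was OSCAR, a receptor, in clone 1.2 (1.17, adjusted p = 5.68e-05). A375 tested 18 genes for folding and modification, 5 for export and transcription, 4 for procollagen processing and 9 receptors. Of all genes, 4.01% were called in A375 clone 1.2 (2.57% higher) and 4.97% in at least 1 A375 clone.

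Markers of cell state moved in the same clones. Of 8 melanocytic genes, 4 were lower in WM115 clone 1.2 (3.11% of all genes), 6 in clone 4.1 (4.37%), 5 in clone 4.2 (4.08%) and 1 in clone 1.1 (3.66%). Without clone 1.2 replicate 3, MLANA and DCT were still lower in that clone, and SOX10 (-0.87, adjusted p = 0.0123) and MITF (-0.97, adjusted p = 0.24) were not called. Their summed level was 1044 to 2890 TPM in WM115 WT, 29.4 to 936 in clone 1.2, 791 to 1138 in clone 4.1 and 661 to 1065 in clone 4.2. The 29.4 TPM belonged to clone 1.2 replicate 3. Of 7 fibroblast markers, FAP was lower in both R4 clones, LUM was lower in clones 1.1, 1.2 and 4.2, and DCN was higher in clone 4.1. Their summed level was 72.2 to 124 TPM in WT, 57.2 to 86.3 in clone 1.2, 31.5 to 36.6 in clone 4.1 and 48.8 to 70.2 in clone 4.2. Of 4 endothelial markers, PECAM1 was higher in clones 1.2, 4.1 and 4.2, though not in clone 1.2 without replicate 3 (1.11, adjusted p = 0.117). CDH5 had 0.319 to 4.04 TPM in clone 1.2 and at most 0.064 in WT, KDR had 0 to 1.34 TPM in clone 1.2 and 1.28 to 2.74 in WT, and VWF had at most 0.282 TPM in clones 1.2, 4.1 and 4.2. Of 4 keratinocyte markers, KRT14 was higher in clones 4.1 and 4.2 (1.5 and 1.34), KRT5 was listed at 0 in every WM115 library, KRT1 had at most 0.022 TPM, and KRT10 had 55.4 to 76.7 TPM in these clones and 40.1 to 55.8 in WT. In A375 clone 1.2, the fibroblast markers LUM (1.48) and PRRX1 (-2.81) differed from WT in opposite directions. The part of these markers in the collagen differences was not tested.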

How the data were processed

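RNA-seq of 39 libraries was analysed from the deposited gene table. Per the labels, polyadenylated RNA was copied with random hexamers. The authors deposited TPM per gene and per transcript, and DRAGEN and the GRCh38 build are named in the submitters' processing notes. The annotation release is not given in the sources used here. The table has 60871 lines, of which 200 repeat others identically, and TPM sum to 999999.9 to 1000000.1 a library. In each table, 6 columns of values match no sample and were not used. Their headers carry other WT numbers than those of the WM115 WT libraries used. What these numbers mean is not given. No counts are given, so no counting interval was computed.

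Values were fitted as log2(TPM + 1), each line on its own, with limma 3.58.1 in R 4.3.3 (1 coefficient per group, variance trend, two-sided, Benjamini-Hochberg). Genes with at least 1 TPM in at least 3 libraries were tested, 16692 in A375, 16997 in WM115, 16126 between the WT lines and 15287 over clones. Calls needed an adjusted p under 0.05 and a log2 difference of at least 1. The fits were tested on simulated data. Positions are from GENCODE 29, which placed all 44 genes.

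Genes given in full were the 3 highest in WT of each line, those with calls in 1 direction in the pair of clones of a region, and up to 2 called genes in each direction per clone with the largest differences, 19 in all. COL1A1, COL5A1, COL5A2, COL4A4, COL14A1 and COL18A1 were added after their values were seen. The members, lists and rules were chosen with earlier results of these data known. Alternatives were a pseudocount of 0.1, a mean of at least 5 TPM, no filter, median-of-ratios scaling, the replicate number as a block, and leaving out each library or clone. A term for mitochondrial share (split at 2.5% in A375 and 7.5% in WM115), fits within such a set, and leaving out both WM115 libraries that stand apart were chosen after seeing the data. The low-share set kept replicates 1 and 2 of A375 clone 1.2 and 1 and 3 of A375 clone 4.2. The high-share set kept replicates 4 and 5 of WM115 clone 1.1 and 2 and 3 of WM115 clone 4.2. Calls lost there were not separated from the smaller number of libraries. Replicate numbers paired libraries by every pair's correlation in A375 clone 4.1 only.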

Additional observations from a re-analysis of the deposited data

Results flagged for a closer look

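Among 95 combinations of a named collagen gene and a group of 4 or 5 libraries, 8 held a library far from the others by Dixon's test, where chance gives about 1 in 20. In WM115 WT, COL9A3 was lowest in replicate 4, at 211 TPM, COL12A1 was highest in replicate 3, at 21.9 TPM, and COL27A1 was lowest in that replicate 3, at 8.18 TPM. COL19A1 was highest in replicate 1 of WM115 clone 1.1, at 28.5 TPM. COL7A1 was highest in replicate 3 of A375 clone 4.1, at 7.23 TPM. Under 1 TPM, COL9A1 was highest in A375 WT replicate 2, at 0.383 TPM, COL15A1 was lowest in A375 clone 1.2 replicate 2, at 0.128 TPM, and COL4A3 was highest in A375 clone 1.2 replicate 4, at 0.139 TPM. The WT libraries enter every clone comparison of their line.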

How the results depend on the processing

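Of 42 called differences of the named collagen genes, 14 passed under every alternative that gave a value and 0 changed direction in any. Most of the 14 were between the WT lines: COL1A2, COL4A3, COL6A3, COL9A1, COL9A2, COL15A1, COL16A1 and COL22A1. Those of clones were COL13A1 and COL19A1 in A375 clone 1.2 and COL4A3 and COL5A3 in WM115 clone 1.1. The rest were COL9A2 in WM115 clone 4.1 and COL12A1 in WM115 clone 4.2. All other clone calls of named genes were lost in at least 1 alternative. Numbers of called collagen genes moved more. Against 6 in A375 clone 1.2, there were 2 within the low-share libraries and 3 with the replicate block. Against 1 in A375 clone 4.1, there were 2 with a pseudocount of 0.1 and with the replicate block, and 0 with a mean of at least 5 TPM or in low-share libraries. Against 1 in A375 clone 4.2, there were 0 without a filter, in low-share libraries or with the replicate block. Against 6 in WM115 clone 1.1, there were 10 with a pseudocount of 0.1 and 3 in high-share libraries, and with the block 9. Against 12 in WM115 clone 1.2, there were 4 without both libraries that stand apart and 1 with the replicate block. Against 8 in WM115 clone 4.1, there were 5 without a filter and with the block, and 3 with the mitochondrial-share term. Against 5 in WM115 clone 4.2, there were 2 without a filter, 3 with the share term and 1 in high-share libraries. Against 17 between the WT lines, 11 were left with a mean of at least 5 TPM, which tests fewer genes. Without a filter, the limma calls of COL1A1 in A375 clone 1.2 (adjusted p = 0.0805) and COL6A3 in A375 clone 4.2 (0.0562) were lost. So were COL19A1, COL9A1 and COL9A3 in WM115 clone 1.2 (0.0688, 0.0760 and 0.0522). In WM115 clone 4.1, COL6A1, COL6A2 and COL7A1 were lost (0.0841, 0.0826 and 0.0539). In WM115 clone 4.2, COL27A1, COL6A1 and COL6A2 were lost (0.0697, 0.0905 and 0.0597). Block fits use only libraries whose number occurs in both groups, and except in A375 clone 4.1 the numbers do not pair libraries. The cause of the other shifts was not tested.

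Leaving out 1 library at a time gave 3 to 6 calls in A375 clone 1.2 (3 without its replicate 4), 0 to 2 in A375 clone 4.1 (2 without its replicate 1, 0 without its replicate 2, 3 or 4 or WT replicate 1 or 4), and 0 to 1 in A375 clone 4.2 (0 without any of its libraries or WT replicate 1, 2 or 3). In WM115 it gave 6 to 9 in clone 1.1, 4 to 14 in clone 1.2 (4 without its replicate 3), 0 to 1 in clone 1.3 (1 without its replicate 3), 3 to 7 in clone 4.1 (4 and 3 without its replicates 1 and 2, 5 without WT replicate 2 or 4) and 2 to 8 in clone 4.2 (2 and 3 without its replicates 1 and 2, 2 without WT replicate 2 or 4, 8 without WT replicate 3). Between the WT lines it gave 14 to 16. The counts of 0 in A375 clone 1.1 and between R4 and R1 clones were 0 in every alternative run. With no read counts, differences near 1 TPM cannot be set against counting error.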

Other observations

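The deposited transcript table adds to the gene levels in the WT libraries. COL7A1 was counted mostly on transcripts annotated as not protein-coding, 90.0% ± 4.18 of its TPM in A375 and 82.5% ± 3.32 in WM115 (SD, n = 4), and its leading transcript is annotated as a retained intron. COL16A1 had 47.8% ± 9.37 and 55.1% ± 3.40 on such transcripts, COL6A1 31.9% ± 3.28 and 30.2% ± 3.01, and COL4A1 8.54% ± 1.99 and 7.18% ± 1.70. COL6A2-201 held 86.8% ± 1.17 of COL6A2 in A375 and 61.7% ± 1.34 in WM115. COL1A2-201 held 61.8% ± 2.97 of COL1A2 in WM115, with 20.7% ± 0.818 on transcripts that are not protein-coding. These shares rest on the authors' assignment of reads to transcripts and were not compared by a test.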
